A study of Danio rerio with 12 samples.

Results

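The miR-17-92 type clusters are groups of microRNA hairpins that are cut from shared transcripts, and 10 of their mature names other than miR-19 were followed here in whole zebrafish embryos: mir-17a, mir-18a, mir-18b, mir-18c, mir-20a, mir-20b, mir-25, mir-92a, mir-92b and mir-93. Members were all rows of the count tables that carry one of these names, from either arm of the hairpin. Of 24 such rows, pairs of near-equal copies were counted once, which left 22 features of 464 in the series, 10 major arms and 12 minor arms (marked with a star). All 22 passed the filter on low counts. Small RNA was sequenced in 12 libraries of embryos of the TL wild type strain, 3 from each of 4 groups: 36 or 60 hours post fertilization (hpf), with TCDD or with DMSO. TCDD is the dioxin 2,3,7,8-tetrachlorodibenzo-p-dioxin, a ligand of the aryl hydrocarbon receptor, and DMSO is the solvent given to the control embryos. The labels name neither dose, exposure window nor number of embryos per library. They also do not say whether the 3 libraries of a group came from separate clutches, so p-values measure the spread between these libraries, which may be technical.

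A transcript of this type is folded into several hairpins, each of which is cut into a short duplex. The strand that is kept in the silencing complex is the major arm, and its partner is the minor arm. The members fall into families by their seed, the short stretch that pairs with targets: miR-17, miR-20 and miR-93 share one, the miR-18 seed is a near relative of it, and miR-25 and miR-92 share another. In mammals the miR-17 family lowers cell cycle inhibitors such as CDKN1A and the pro-apoptotic BIM, and miR-92a restrains vessel growth in endothelial cells. Loss of the cluster in mice gives heart defects and hypoplastic lungs. TCDD disturbs heart and jaw development in zebrafish larvae. The series asked how TCDD changes microRNAs soon after exposure.

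Library depth ran from 459634 to 4210840 microRNA counts, so that 1 count was worth 0.237 to 2.18 CPM, the count scaled to a common library total. The 22 members together took 3.07% to 11.6% of a library's counts. Levels below are CPM after TMM scaling, a factor per library from the trimmed mean of log ratios. They carry no length correction, since mature microRNAs are of nearly the same length. Of 16 marker microRNAs of muscle, blood, nerve, epidermis, liver, vessels and the early embryo, 15 were detected in every library. The muscle mir-1 was at 3079 to 13912 CPM and the epidermal mir-203b at 38032 to 90070 CPM. Other markers ranged more widely: the erythroid mir-451 ran from 581 to 4613 CPM and mir-144 from 0 (36 hpf TCDD replicate 2) to 396, the neural mir-124 from 20.7 to 2120 and mir-9 from 4.99 to 668, and the liver mir-122 from 13 to 882 CPM. The lowest mir-124 and mir-122 were both in 60 hpf TCDD replicate 2. The 2 erythroid markers did not go together in these libraries. In 36 hpf TCDD replicate 2, where mir-144 had 0 CPM, mir-451 was at its highest, 4613 CPM. In 60 hpf TCDD replicate 2 mir-144 was at 10.9 and mir-451 at 2645 CPM. The source of this mismatch was not tested. In such bulk samples fewer cells of a type and less RNA per cell cannot be told apart.

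In the RefSeq gene order the member hairpins lay in 4 groups of neighbours and 1 alone. The first group held mir-92a-1, mir-19b, mir-20a, mir-19a, mir-18a and mir-17a-1, the full set of the classical cluster. The second was made of mir-25, mir-19d and mir-93, and the third of mir-363, mir-19c, mir-20b and mir-18c. The last of the groups held mir-92a-2, mir-18b and mir-17a-2, while mir-92b had no member hairpin beside it. The tables list the major arms of mir-17a-1 and mir-17a-2 separately, but the 2 rows differed by only 0.0328% to 0.22% in a library, and those of mir-92a-1 and mir-92a-2 by 0.219% to 2.37%. Which of the 2 loci gave the mature mir-17a or mir-92a therefore cannot be told apart.

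By the mean over the 12 libraries the major arms ranked from mir-20a at 28123 CPM, the 11th most abundant of the 464 features, to mir-92b at 1416 CPM, the 94th. Between them came mir-17a at 9137 CPM, mir-20b at 7137, mir-18a at 6497, mir-18c at 5864, mir-92a at 2891, mir-18b at 2496, mir-93 at 2153 and mir-25 at 1980 CPM. mir-20a was the highest of the 10 in 10 of 12 libraries. mir-17a was above mir-20b in 10 of 12 libraries, and mir-25 above mir-92b in 9. For each of the other 6 pairs of neighbours in this order, from mir-20b and mir-18a to mir-93 and mir-25, the higher mean was the higher level in only 7 of 12 libraries, so their order is not fixed beyond the spread between libraries. Among the minor arms mir-20a* stood out at 1026 CPM, while mir-25* averaged only 4.83 CPM. In descending order the rest were mir-17a-1* at 291 CPM, mir-18c* at 207, mir-92a-1* at 193, mir-93* at 144, mir-92a-2* at 90.9, mir-18a* at 85.5, mir-20b* at 73.5, mir-17a-2* at 65.1, mir-92b* at 60.9 and mir-18b* at 40 CPM.

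The miR-17 type arms had the highest summed level of the 3 families in all 12 libraries, and exceeded the other families together in 10. mir-20a, an arm of the classical cluster, stood at 47260, 61387 and 306 CPM in the 36 hpf DMSO libraries numbered 1 to 3, and at 54652, 23169 and 16961 CPM in the 36 hpf TCDD libraries. At 60 hpf it was at 35675, 34378 and 29133 CPM in DMSO and at 19863, 2139 and 12550 CPM in TCDD. The 3 libraries of 60 hpf DMSO lay close together (33062 ± 3464 CPM, SD, n = 3), whereas 36 hpf DMSO replicate 3 was 85.6-fold below the median of all 12 libraries and 60 hpf TCDD replicate 2 was 12.2-fold below it. mir-17a, which shares the seed of mir-20a, was at 13425, 13147 and 10254 CPM in 36 hpf DMSO and at 11813, 11451 and 1189 CPM in 36 hpf TCDD. At 60 hpf it was at 7735, 7377 and 9949 CPM in DMSO and at 11285, 6177 and 5839 CPM in TCDD. Its low library, 36 hpf TCDD replicate 3, was another one than those of mir-20a.

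mir-20b, the miR-17 type arm of the third group of hairpins, was the steadiest of its family, with a standard deviation between replicates of 0.46 on the log2 scale. It was at 10494, 9618 and 10604 CPM in 36 hpf DMSO, and at 8375, 9757 and 5837 CPM in 36 hpf TCDD. At 60 hpf it was at 4906, 5096 and 6962 CPM in DMSO and at 6834, 2371 and 4797 CPM in TCDD. All 3 DMSO libraries of 60 hpf lay below all 3 of 36 hpf. mir-93, the miR-17 type arm that neighbours mir-25, was at 2482, 4100 and 1407 CPM in 36 hpf DMSO, at 2686, 658 and 388 CPM in 36 hpf TCDD and at 4329, 3815 and 1834 CPM in 60 hpf DMSO. In 60 hpf TCDD it was at 3990, 132 and 13.9 CPM. The last of these values came from 73 counts in the deepest library of the series and was 155-fold below the median of mir-93, the largest such gap among the members' major arms.

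The miR-18 type arms, whose seed is close to that of miR-17, also had single low libraries. mir-18a was at 6520, 13354 and 8188 CPM in 36 hpf DMSO, at 7511, 1459 and 6620 CPM in 36 hpf TCDD and at 10581, 6640 and 3885 CPM in 60 hpf DMSO. In 60 hpf TCDD it was at 2985, 174 and 10046 CPM, so that the same group held a library near the top of the range and the lowest of the 12. mir-18b was at 3145, 5627 and 156 CPM in 36 hpf DMSO and at 3565, 988 and 1031 CPM in 36 hpf TCDD. At 60 hpf it was at 5663, 3673 and 1591 CPM in DMSO and at 3718, 61.2 and 731 CPM in TCDD. Its lowest values fell in 36 hpf DMSO replicate 3 and 60 hpf TCDD replicate 2, the libraries in which mir-20a was low. mir-18c was at 2161, 13950 and 8553 CPM in 36 hpf DMSO and at 4878, 960 and 8531 CPM in 36 hpf TCDD. At 60 hpf it was at 6321, 8302 and 1563 CPM in DMSO and at 2169, 6072 and 6907 CPM in TCDD, and the groups overlapped throughout.

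The miR-92 type arms, known in mammals from blood vessels (miR-92a) and neural progenitors (miR-92b), had the lowest summed level in 10 of 12 libraries. mir-25 was at 2420, 1081 and 2528 CPM in 36 hpf DMSO and at 1590, 2052 and 3362 CPM in 36 hpf TCDD. At 60 hpf it was at 1668, 1336 and 1651 CPM in DMSO and at 1900, 2097 and 2077 CPM in TCDD. mir-92a was at 2296, 3415 and 3464 CPM in 36 hpf DMSO, at 4906, 3838 and 2198 CPM in 36 hpf TCDD, at 2254, 1423 and 2862 CPM in 60 hpf DMSO and at 4475, 2917 and 640 CPM in 60 hpf TCDD. Neither arm had a library more than 5-fold below its median. mir-92b, which lies apart from the other hairpins, was at 1628, 1754 and 2755 CPM in 36 hpf DMSO and at 256, 747 and 1024 CPM in 60 hpf DMSO. In TCDD embryos it was at 2204, 1517 and 1221 CPM at 36 hpf and at 1350, 1410 and 1125 CPM at 60 hpf, with overlap between the times. In DMSO the 2 times did not overlap.

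**Figure D1:**
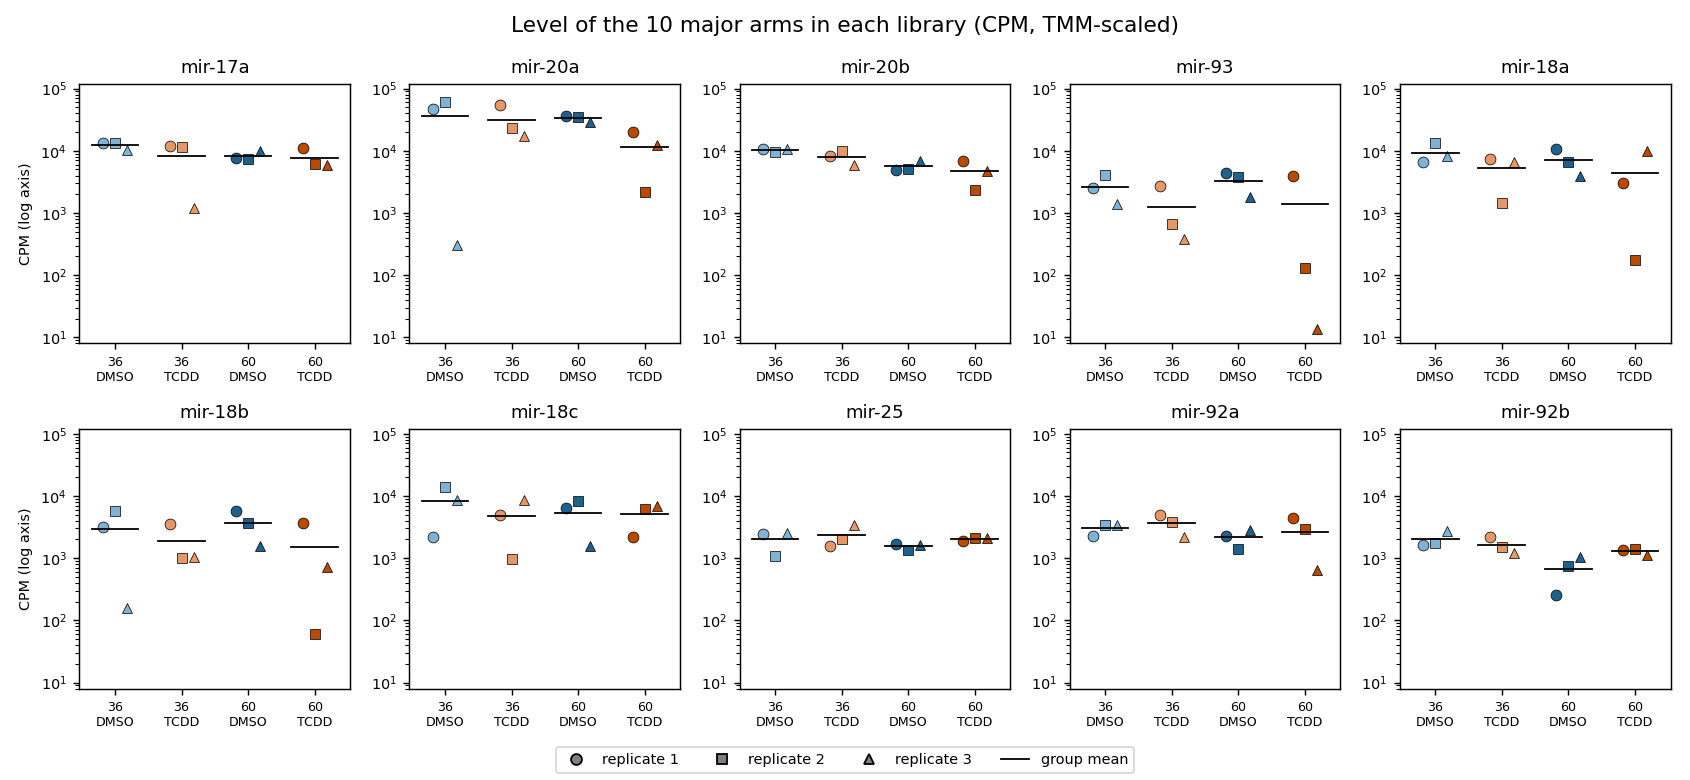
Level of each of the 10 major arms (CPM after TMM scaling, log axis, same scale in each panel) by group (hpf and treatment); each point is a library, its shape the replicate number and the line the mean of the 3 libraries. mir-20b and mir-25 stay within narrow bands, while mir-93 reaches 13.9 CPM and mir-20a 306 CPM in single libraries.

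A summed level cannot range more widely than the widest arm in it, so that comparison alone does not show that swings evened out. In the miR-18 and miR-92 types the sum ranged less than every single arm. The narrowest arms there were mir-18c (14.5-fold) and mir-25 (3.11-fold). In the miR-17 type the sum ranged more than mir-20b alone (4.47-fold). The widest single arms ranged 311-fold in the miR-17 type (mir-93), 92.6-fold in the miR-18 type (mir-18b) and 10.8-fold in the miR-92 type (mir-92b). The sum of mir-25, mir-92a and mir-92b ran from 3505 to 8747 CPM, a 2.5-fold range. The sum of the 4 miR-17 type arms ran from 10820 CPM in 60 hpf TCDD replicate 2 to 88251 CPM in 36 hpf DMSO replicate 2, an 8.16-fold range. That of the 3 miR-18 type arms ran from 3407 to 32932 CPM, a 9.67-fold range. By group, the miR-17 type sum was 61494 ± 34489 CPM in 36 hpf DMSO, 48979 ± 26794 in 36 hpf TCDD, 50396 ± 2395 in 60 hpf DMSO and 25330 ± 15685 CPM in 60 hpf TCDD (SD, n = 3 each).

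Where one arm of a group of neighbouring hairpins was low in a library, others of the same group were often much nearer their medians. In 36 hpf DMSO replicate 3, mir-20a was at 0.0117 times its median, while the other major arms of the classical cluster were at 0.804 (mir-19b) to 1.23 times theirs (mir-18a). Reads of mir-17a and mir-92a may also come from their second loci in the last group. Their values, here and below, therefore do not describe the classical cluster alone. In 60 hpf TCDD replicate 2, mir-18a was at 0.0263 and mir-20a at 0.0818 times their medians. There mir-19a was at 0.438, mir-19b at 0.507, mir-17a at 0.612 and mir-92a at 1.01 times theirs. In 60 hpf TCDD replicate 3, mir-93 was at 0.00646 and its neighbour mir-19d at 0.0208 times the median, yet mir-25, the third hairpin of that group, was at 1.05 times its own. In 36 hpf TCDD replicate 3, mir-17a was at 0.118 times its median beside 0.999 for mir-18a and 0.649 for mir-20a. Some arms of the classical cluster were low together in 60 hpf TCDD replicate 3. There mir-19b was at 0.0255, mir-19a at 0.0596 and mir-92a at 0.222 times their medians. mir-20a was at 0.48, mir-17a at 0.578 and mir-18a at 1.52 times theirs. In the third group mir-19c was also low there, at 0.145, beside mir-363 at 0.587, mir-20b at 0.695 and mir-18c at 1.11. Low levels in that library were thus shared by the major arms of all 4 miR-19 microRNAs across groups of hairpins, and not by all neighbours.

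**Figure D2:**
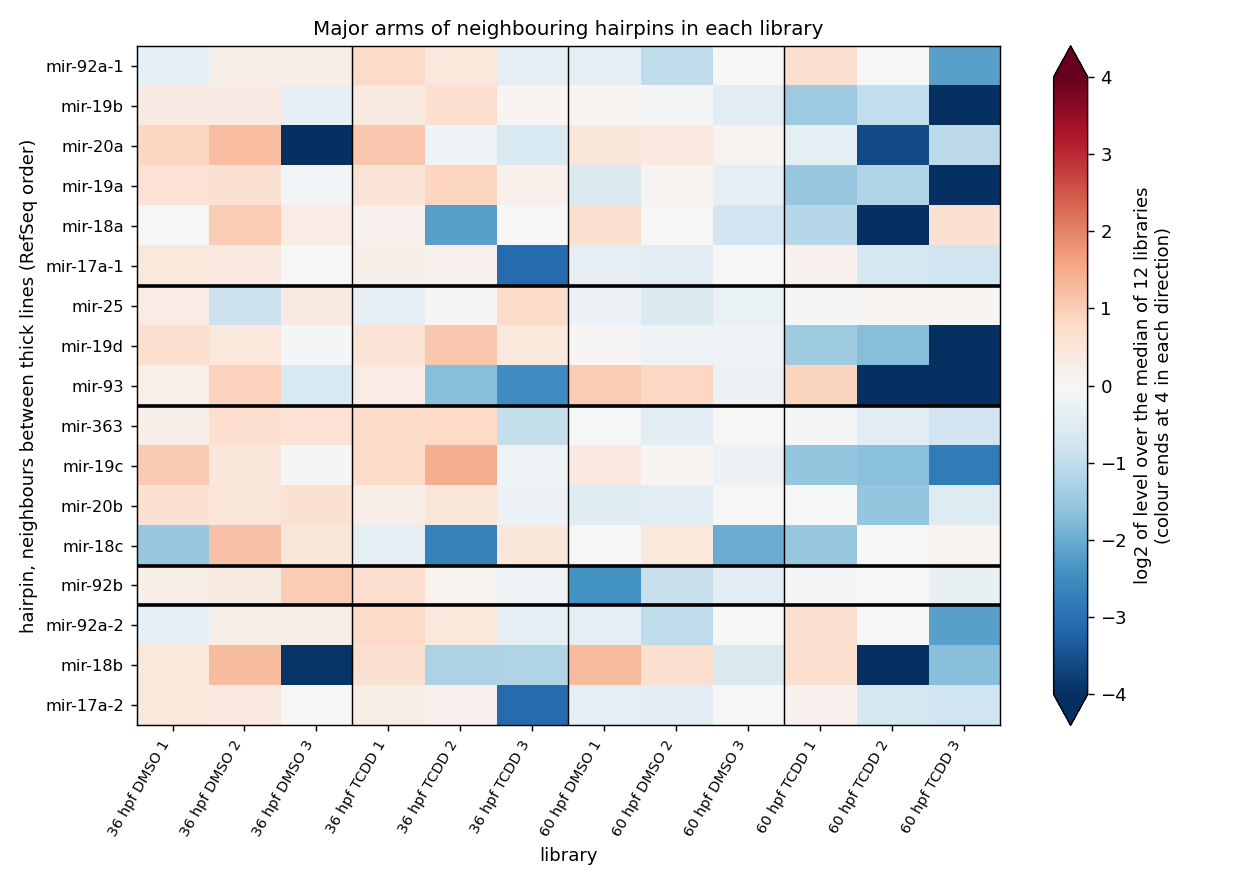
Level of each major arm in each library as the log2 ratio to its own median over the 12 libraries; rows are hairpins in RefSeq order with thick lines between groups of neighbours, columns are libraries with thin lines between treatment groups, and the colour ends at 4 in each direction. The dark blue cell of mir-20a in 36 hpf DMSO replicate 3 (0.0117 times its median) sits among neighbours at 0.804 to 1.23 times theirs, while mir-93 in 60 hpf TCDD replicate 3 is low beside mir-19d (0.0208) but not beside mir-25 (1.05); mir-17a and mir-92a appear on 2 rows each with the same values.

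Such low libraries were counted for features with a median of 100 CPM or more. Of the 10 major arms, 7 (70%) had a library more than 5-fold below their median, and 4 (40%) had one more than 10-fold below. Over all features of that level the shares were 66 of 221 (29.9%) and 37 of 221 (16.7%), and over all major arms 46 of 141 (32.6%) and 25 of 141 (17.7%). Among the miR-19 and miR-363 arms of the same clusters they were 4 of 6 (66.7%) and 3 of 6 (50%). The 11 low values of the members' major arms fell in 6 libraries, 4 of them in 60 hpf TCDD replicate 2, and at least 1 library of every group was among the 6. The median standard deviation between replicates, on the log2 scale, was 1.17 for the 10 major arms and 0.54 for all 221 features. mir-20a (2.36), mir-93 (2.21) and mir-18b (2.15) were the most variable members, and mir-18c* (0.14) the least. The libraries with low values ranged in depth from the shallowest, 36 hpf TCDD replicate 3 (459634 counts), to the deepest, 60 hpf TCDD replicate 3 (4210840 counts), and a part of depth in these values was not tested.

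After TCDD at 36 hpf 0 of 22 arms passed the threshold of adjusted p under 0.05 in edgeR's quasi-likelihood test, where 0 of 410 features did (0%). DESeq2 and limma-voom also called 0 of 22, and each 0 of 410 features. In edgeR 0 of 22 had an unadjusted p under 0.05, against 17 of 410 features. The log2 fold changes ran from -1.10 to 0.61 with a median of -0.06, beside 0.05 over all features, and 13 of 22 were negative. The 10 major arms had a median of -0.47 and the 12 minor arms of 0.12. Among major arms mir-93 had the lowest value, -1.10 (SE 1.42), followed by mir-18a at -0.85 (SE 1.03), mir-18c at -0.78 (SE 0.88) and mir-17a at -0.59 (SE 0.64), each with an adjusted p of 0.996. Single libraries moved each of these values by over 1.5 times. mir-17a was at -0.10 without 36 hpf TCDD replicate 3 and -1.01 without replicate 2, and mir-18a at -0.48 without 36 hpf TCDD replicate 2. mir-18c ran from -1.60 to -0.30 and mir-93 from -2.30 to -0.71, with the values nearest 0 without 36 hpf DMSO replicate 2. In 1 of 22 arms the 2 groups did not overlap, mir-92a-1*, which was higher with TCDD, against 5.37% of all features in either direction.

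After TCDD at 60 hpf 0 of 22 arms passed, against 0.244% of all features. DESeq2 and limma-voom again called 0 of 22, against 10 and 1 of 410 features. In edgeR 0 of 22 had an unadjusted p under 0.05, against 28 of 410. The log2 fold changes ran from -1.52 to 0.94 with a median of -0.10, beside 0.00 over all features, and 14 of 22 were negative. With total counts in place of TMM the median of all features shifted to 0.31 and that of the members to 0.19, with 6 of 22 negative. With upper quartile factors the medians were 0.26 and 0.19, with 8 of 22 negative, so no common direction of the members was held across scalings.

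The 2 groups did not overlap in 5 of 22 arms at 60 hpf, a share close to the 21.5% of all features. Those that were lower with TCDD were both arms of mir-20a and mir-18c*. The major arm of mir-20a averaged 11517 ± 8907 CPM after TCDD against 33062 ± 3464 after DMSO, and mir-20a* 534 ± 249 against 1258 ± 43.8 CPM (SD, n = 3 each). Their log2 fold changes were -1.52 (SE 1.23, adjusted p = 0.991) and -1.24 (SE 0.86, adjusted p = 0.916), within the spread between libraries. Without 60 hpf TCDD replicate 2 mir-20a was at -0.99. mir-18c* had 118 to 139 CPM after TCDD and 154 to 159 after DMSO, with a log2 fold change of -0.26 (SE 0.24, adjusted p = 0.991). This gap of mir-18c* depends on the scaling. TMM factors were 1.21 to 1.24 in the 60 hpf TCDD libraries and 0.956 to 1.07 in 60 hpf DMSO. As shares of unscaled library totals its 2 groups overlap. The arms that were higher were mir-25, at 2025 ± 108 against 1552 ± 187 CPM, and mir-92b, at 1295 ± 150 against 675 ± 389 CPM. For mir-25 the log2 fold change was 0.38 (SE 0.37, adjusted p = 0.991). The log2 fold change of mir-92b, 0.94 (SE 0.46, adjusted p = 0.782), had the smallest adjusted p of the members, and ran from 0.54 (without 60 hpf DMSO replicate 1) to 1.37 (without 60 hpf DMSO replicate 3).

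The most variable arms gave wide estimates at 60 hpf. mir-93 averaged 1379 ± 2262 CPM with TCDD against 3326 ± 1317 with DMSO, with a log2 fold change of -1.27 (SE 1.42, adjusted p = 0.991). Leaving out libraries in turn moved it from -5.52, without 60 hpf TCDD replicate 1, to -0.66. mir-18b was at -1.28 (SE 1.31) and mir-18a at -0.68 (SE 1.02), each with an adjusted p of 0.991. With 1 library left out mir-18b ran from -3.18 (without 60 hpf TCDD replicate 1) to -0.65 (without replicate 2), and mir-18a from -2.15 (without replicate 3) to -0.10 (without replicate 2). For comparison, the major arms of the 4 miR-19 microRNAs from the same clusters had a median log2 fold change of -1.81 (range -2.02 to -1.57), with 0 of 4 called and 3 of 4 at an unadjusted p under 0.05. The difference between these arms and the members was not tested.

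Over both times together 0 of 22 members passed for TCDD against DMSO, beside 0.244% of all features, and the members' median log2 fold change was -0.01. A test of the difference of the TCDD effect between 60 and 36 hpf likewise called 0 of 22, against 0% of all features. DESeq2 called 0 of 22 in both, against 4 of 410 features over both times and 6 of 410 for the difference. limma-voom called 0 of 22 in both, against 1 and 0 of 410. In edgeR 0 of 22 had an unadjusted p under 0.05 in either, against 20 and 19 of 410. The widest gap with an opposite sign at the 2 times was that of mir-92b, -0.31 (SE 0.46) at 36 hpf and 0.94 (SE 0.46) at 60 hpf, a difference of 1.25 (SE 0.65, adjusted p = 0.871).

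**Figure D3:**
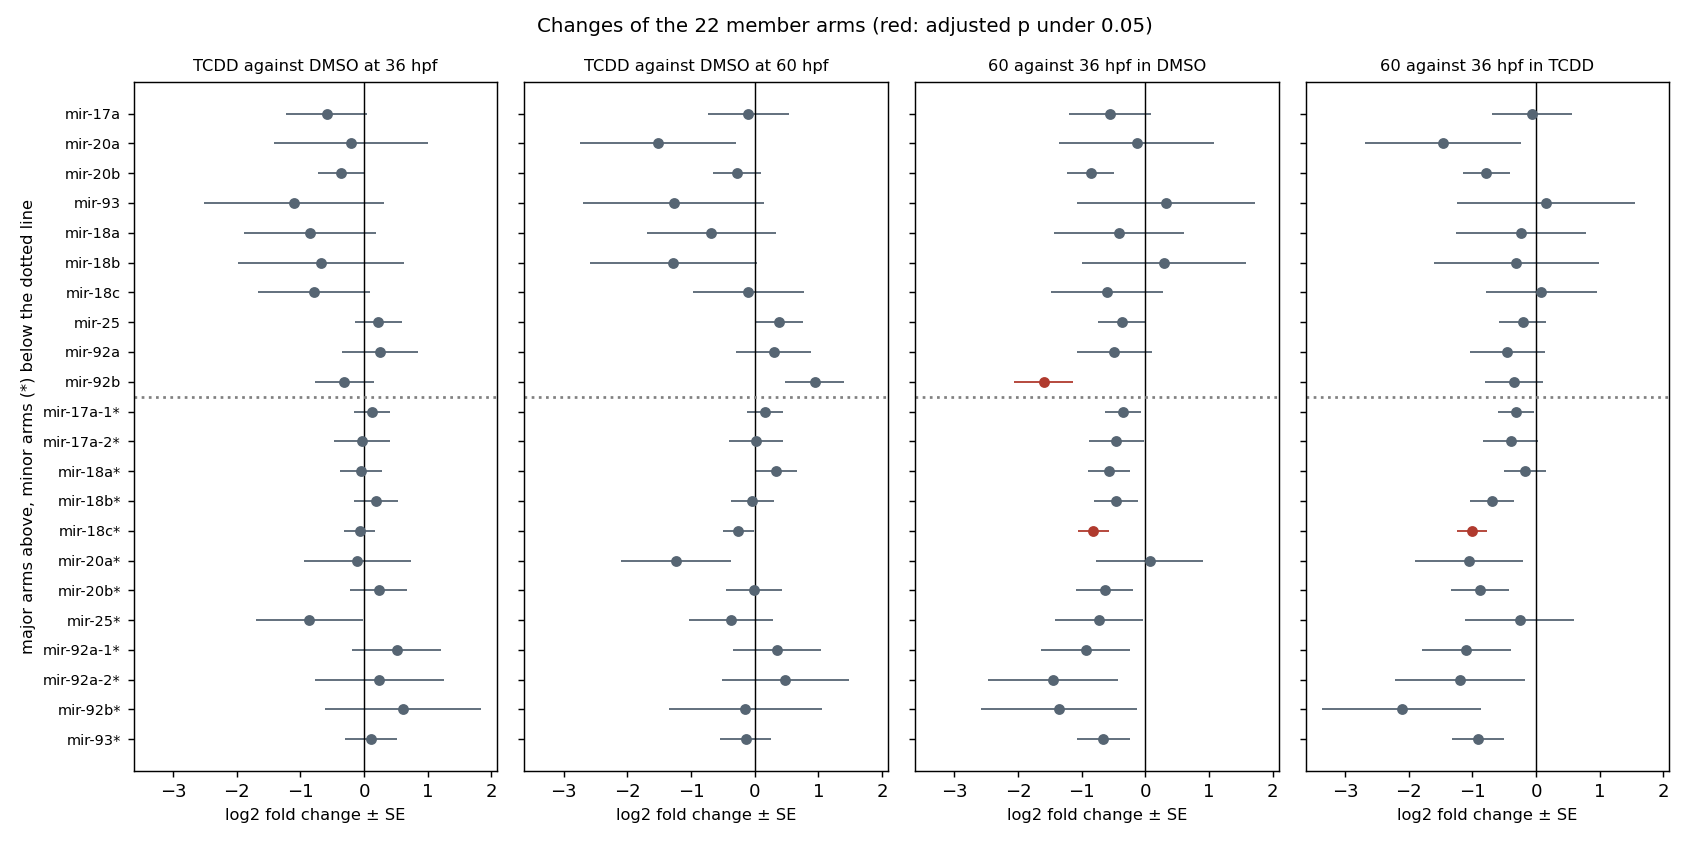
Log2 fold change with its standard error for the 22 arms in 4 comparisons, from the edgeR fit over all 12 libraries; major arms are above and minor arms below the dotted line, and red points passed adjusted p under 0.05. No point is red for TCDD, mir-92b (-1.60) and mir-18c* (-0.82) are red for 60 against 36 hpf in DMSO, and mir-18c* (-1.01) is red for the same comparison in TCDD.

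Between 36 and 60 hpf in DMSO embryos 2 of 22 arms passed as lower, mir-92b and mir-18c*, and 0 as higher. Of all features 18.3% passed in either direction and 5.61% in the lower one. mir-92b fell from 2045 ± 617 to 675 ± 389 CPM (SD, n = 3 each), by 1.60 on the log2 scale (SE 0.47, adjusted p = 0.0366), and mir-18c* from 278 ± 22.1 to 157 ± 2.92 CPM, by 0.82 (SE 0.24, adjusted p = 0.0343). The minor arm of mir-18c was at 257, 301 and 275 CPM at 36 hpf and at 158, 159 and 154 CPM at 60 hpf, 2 narrow ranges that lie apart. Its major arm, whose libraries overlapped, was at 8221 ± 5901 and 5395 ± 3463 CPM.

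Both calls lay near the threshold. That of mir-92b ended without 36 hpf DMSO replicates 2 or 3 (adjusted p = 0.06 and 0.119), without 60 hpf DMSO replicates 1 or 2 (0.0733 and 0.0832) and without 60 hpf TCDD replicates 1 or 2 (0.0534 and 0.054). Without 60 hpf DMSO replicate 1, its lowest library, mir-92b was at -1.20 (SE 0.39). The call of mir-18c* ended without 36 hpf DMSO replicates 2 or 3 (0.0868 and 0.0611), without 60 hpf DMSO replicates 1, 2 or 3 (0.103, 0.0804 and 0.0806) and without 60 hpf TCDD replicates 1, 2 or 3 (0.0533, 0.054 and 0.0529). Its log2 fold change stayed between -1.02 and -0.82 in these fits. Total count scaling gave adjusted p = 0.0543 for mir-92b and 0.0644 for mir-18c*. A replicate block in the TCDD libraries, the groups whose numbers pair, gave 0.0503 and 0.0608 for these DMSO comparisons.

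Of all 22 arms in DMSO 19 had a negative log2 fold change and 3 a positive one (mir-18b, mir-20a* and mir-93), with a median of -0.56 beside 0.08 over all features, of which 45.6% were negative. This difference between the members and all features was not tested. In 5 of 22 arms the 60 hpf libraries all lay below the 36 hpf libraries (mir-17a, mir-18c*, mir-20b, mir-92a-2* and mir-92b), beside 17.1% of all features. mir-20b had a log2 fold change of -0.86 (SE 0.37, adjusted p = 0.142), and mir-17a one of -0.56 (SE 0.64, adjusted p = 0.597). DESeq2 called mir-20b (adjusted p = 0.0365), but it called more features in this comparison, 120 of 410, with 3 of 22 members among them. The minor arms of mir-92a-1 and mir-92a-2, which can be told apart, were at -0.94 (SE 0.70) and -1.45 (SE 1.02). In 60 hpf DMSO replicate 3 these minor arms were at 12.3 and 2.92 CPM, while the mature mir-92a was at 2862 CPM there. Without that library their log2 fold changes were -0.42 and -0.91, and without 60 hpf DMSO replicate 2 mir-92a-1* was at -1.50.

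In TCDD embryos 1 of 22 arms passed as lower between 36 and 60 hpf, again mir-18c*, and 0 as higher. Of all features 21.5% passed in either direction and 8.78% in the lower one. The arm was at 272, 298 and 222 CPM at 36 hpf and at 136, 118 and 139 CPM at 60 hpf, and it fell by 1.01 on the log2 scale (SE 0.24, adjusted p = 0.0134). The call ended without 36 hpf TCDD replicate 2 (adjusted p = 0.0509), without 60 hpf TCDD replicate 2 (0.0633) and with total counts (0.118). mir-18c* was the only one of the 22 arms that passed in both DMSO and TCDD embryos. The share of all features that did so was not counted. The embryos are separate libraries, but both tests came from 1 fit with a shared estimate of the spread, so the 2 calls are not independent.

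Here 20 of 22 arms were negative, with a median log2 fold change of -0.42 beside 0.08 over all features. With total counts 11 of 22 were negative, the members' median was 0.03 and that of all features 0.53, so the sign of the members' median depends on the scaling. The members' median was -0.82 without 60 hpf TCDD replicate 1, -0.74 with limma-voom and -0.71 with a replicate block in the TCDD libraries. In 4 of 22 arms, all minor (mir-18c*, mir-20b*, mir-92a-1* and mir-93*), the 60 hpf libraries lay below all 36 hpf libraries, beside 17.6% of all features. mir-93* had a log2 fold change of -0.91 (SE 0.41, adjusted p = 0.138). DESeq2 called mir-93* (adjusted p = 0.0456), where it called 3 of 22 members and 136 of 410 features. mir-92b, which fell in DMSO embryos, was at -0.35 (SE 0.46, adjusted p = 0.644) in TCDD embryos. The test of this difference is the same as that of the TCDD effect between times (1.25, SE 0.65, adjusted p = 0.871). Among the miR-19 major arms 4 of 4 were negative in TCDD embryos, with a median of -2.54. Of these 3 passed, beside 8.78% of all features as lower, and mir-19b did not (-2.14, adjusted p = 0.0662).

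The share of the minor arm in the reads of a hairpin name gives a measure within a library that needs no scaling between libraries. Its median over the 12 libraries was lowest for mir-25 (0.215%) and highest for mir-92a (9.06%), with mir-20a at 3.43%, mir-17a at 3.74% and mir-93 at 6.35%. For 3 names, mir-17a, mir-18c and mir-20a, both arms had 50 or more counts in every library. None of them passed an exact permutation test of 60 against 36 hpf (two-sided, 6 libraries per time, smallest adjusted p = 0.853). In that test the labels were permuted over all 12 libraries, without regard to treatment or replicate number. For TCDD against DMSO, permuted within times, the smallest adjusted p was 0.225 (mir-17a, raw exact p = 0.075). With 10 or more counts as the minimum 8 names could be tested and 0 passed. mir-93 had the lowest raw exact p for TCDD, 0.045 (adjusted 0.29), from shares of 2.27%, 46.7% and 87.1% in 60 hpf TCDD and 7.32%, 24.2% and 27.6% in 36 hpf TCDD. In DMSO its shares were 2.76%, 4.89% and 14.8% at 36 hpf and 2.82%, 2.64% and 5.37% at 60 hpf.

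**Figure D4:**
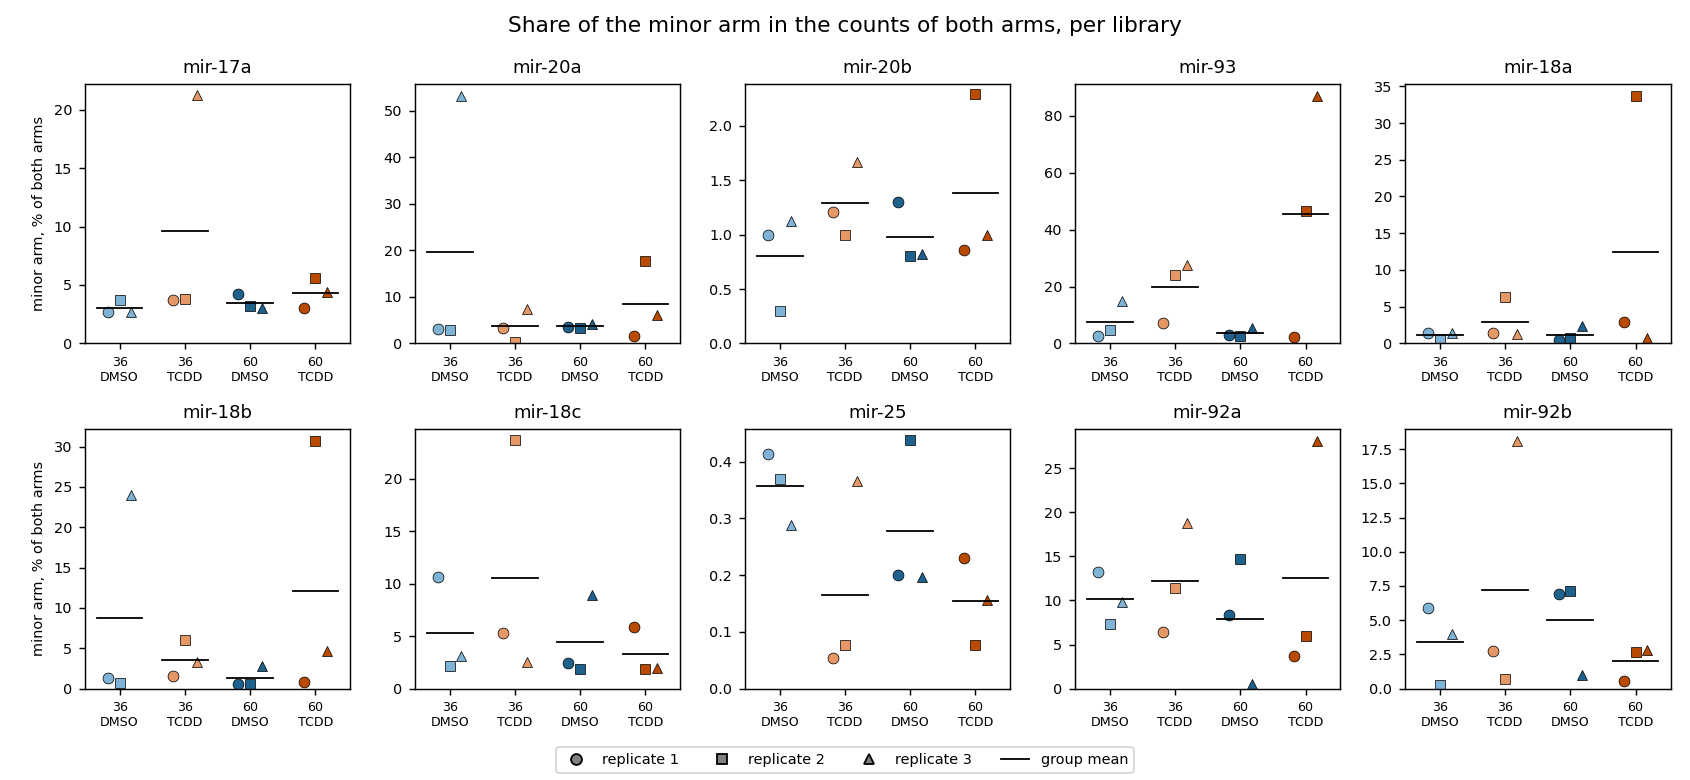
Share of the minor arm in the counts of both arms (percent, linear axis from 0, own scale in each panel) for the 10 names; each point is a library, its shape the replicate number and the line the mean of the 3 libraries of a group. Single high points stand out, such as mir-93 at 87.1% in 60 hpf TCDD replicate 3 and mir-20a at 53.2% in 36 hpf DMSO replicate 3, and mir-25 is at most 0.439%.

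By its definition the share of the minor arm rises as the major arm falls, so a match between them is partly built in. For 8 of the 10 names the highest share fell in the library with the lowest major arm. The exceptions were mir-25 and mir-92b, which reached 18.1% in 36 hpf TCDD replicate 3 with the major arm at 1221 CPM and mir-92b* at 269 CPM, its highest level. mir-20a reached 53.2% in 36 hpf DMSO replicate 3, against 3.02% in replicate 1 and 2.83% in replicate 2. Its minor arm was low there too, at 347 CPM against 1473 and 1787 CPM in replicates 1 and 2 and a median of 1243 CPM. mir-18a reached 33.7% and mir-18b 30.7% in 60 hpf TCDD replicate 2, where the levels of the minor arms were within the range of the other libraries. mir-17a reached 21.3% in 36 hpf TCDD replicate 3 and mir-18c 23.7% in 36 hpf TCDD replicate 2. In the deepest library, where mir-93 had 73 counts, mir-93* had 495, so that the arm named minor gave most of the reads of that hairpin. mir-20a* had a low library of its own, 36 hpf TCDD replicate 2 at 94.7 CPM, 13.1-fold below its median, while mir-20a was at 23169 CPM there.

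The features whose levels went most closely with the mean of the 10 standardized major arms over the 12 libraries were mir-430b (Pearson r = 0.76), of the family that clears maternal messages in zebrafish, mir-10a (0.73), mir-1-2* (0.70), mir-363 (0.67), the remaining hairpin of the third group, and mir-219-1* (0.66). These values describe 12 libraries that include both times and both treatments. The mean standardized level itself was highest in 36 hpf DMSO replicate 2 (0.57) and lowest in 60 hpf TCDD replicate 2 (-0.91).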

How the data were processed

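Small RNA libraries were made with the SREK kit and sequenced on a SOLiD V3 system, per the labels' protocols. The deposited values are whole-number read counts per feature and library. edgeR is named, without a version, in the submitters' processing notes. For the aligner, annotation release and build, a name was not given in the sources used here. Features missing from a library's table were taken as 0. Rows with Ensembl identifiers (1797, 1.2% to 5.35% of counts) entered neither library sizes nor tests. Copies of a name and arm were counted once where their totals came to at least 80% of the most abundant copy. Neighbouring hairpins were read from RefSeq (GRCz12tu) as those joined within 10000 bases, and 17 of 17 names matched. Mature sequences were not used here, so seed families are given as background.

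Counts were fitted in edgeR 4.0.16 (R 4.3.3) with TMM factors, filterByExpr (minimum count 10, minimum total 15) and robust glmQLFit over 4 group means. p-values were adjusted by Benjamini-Hochberg over all 410 features tested, and a call is adjusted p under 0.05. Standard errors came from the F statistic of each test and its fold change. DESeq2 1.42.0 and limma-voom 3.58.1 were alternatives, with other scalings and filters, summed copies, each library left out and a replicate block. The fit was tested on simulated data, in which most features with a large change were called but only a minority of those with a smaller one. The lack of a call thus does not show the lack of a smaller change. In the simulation nearly as many features were changed as left unchanged. Adjusted p-values pass more easily there than in the TCDD comparisons, where the main fit called at most 1 of 410 features. Its rate of calls may therefore be higher than that of the TCDD tests. The changed features of the simulation were drawn from all tested features. The members' major arms varied more between replicates (median standard deviation 1.17, against 0.54 for the 221 features of 100 CPM or more). The simulation therefore does not show that a large change in these arms would have been called. Arm shares were compared by exact permutation. Standard deviations of log2 levels used a pseudocount of 1 CPM. By the naming rule all 22 arms were named, with few values of their neighbours miR-19 and miR-363, and the 5 features outside them with the highest Pearson correlation. The members and lists were chosen with earlier results of these data known.

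Same-numbered libraries of the 36 and 60 hpf TCDD groups deviated together over features (correlations 0.252, 0.263 and 0.416), which pairs them by the rule that each exceeds 0.1. Other pairs of groups were not paired by it. The labels do not say what a number shares.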

Additional observations from a re-analysis of the deposited data

How the results depend on the processing

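Of 550 values recomputed under other settings, 521 kept their direction and side of the threshold, 24 lost and 4 gained a call and 1 reversed. Most of the 550 had no call to lose, so the 521 say little about the calls. All 24 losses were of mir-18c* and mir-92b. With 1 library left out, mir-18c* kept its call in 4 of 12 fits in DMSO and 10 of 12 in TCDD. In DMSO mir-92b kept its call in 6 of 12. Under the other settings these counts were 8 of 11, 10 of 11 and 7 of 11. No member was called for TCDD in any setting, where at most 10 of 410 features were (DESeq2 at 60 hpf). For 60 against 36 hpf in DMSO the count of 2 called arms became 0 with total counts, 0 with the replicate block, 0 with a replicate block in the TCDD libraries alone (added after the data were seen) and 1 without both TCDD libraries numbered 3, and ran from 0 to 3 when 1 library was left out. Of 410 features the main fit called 75 here, total counts 79, the replicate block 62 and the block in TCDD libraries alone 71. The count over all features was 77 of 413 without both TCDD libraries numbered 3. It ran from 53 to 87 when 1 library was left out. With the replicate block adjusted p was 0.0718 for mir-18c* and 0.0631 for mir-92b. In TCDD the count of 1 became 0 with total counts and 3 with DESeq2 (mir-18b*, mir-18c* and mir-93*), ran from 0 to 2 when 1 library was left out and was unmoved by the replicate block, in which the libraries are paired. Of 410 features the main fit called 88 in TCDD embryos, total counts 110, DESeq2 136 and the replicate block 80. With 1 library left out the count over all features ran from 58 to 86. mir-92b in TCDD embryos turned from -0.35 to 0.10 with total counts, which raised the median of all features by 0.45, to 0.53. Depth limits mir-25*, which had 1 to 25 counts in a library.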
